A study of Rattus with 12 samples.

Results

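Glycosaminoglycan synthesis enzymes were followed across 12 rat neuron and glia co-cultures that had or had not received fentanyl. They were taken from the gene table by symbol: genes whose names begin with Chst, Chsy, Chpf, Csgalnact, Hs2st, Hs3st, Hs6st, Ndst, Extl, Xylt or B3gat, together with Ext1, Ext2, Glce, Dse, Dsel, Ust, B4galt7, B3galt6 and Fam20b. This rule found 47 of the 17337 genes in the table, of which 45 were among the 12271 genes with enough counts to test. The rule used names only and no measured value, although it was set with earlier results of these data known.

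The cultures were made from Sprague Dawley rat cortical neurons, astrocytes and oligodendrocyte precursor cells (OPCs) bought as primary cells and seeded together. Lysis followed 4 days of exposure, and the groups were untreated cultures that received culture medium (A, G, M and P), a low dose of 0.01 µM fentanyl (B, H, N and Q) and a high dose of 10 µM fentanyl (C, I, O and R), with n = 4 each. Fentanyl is a synthetic opioid that acts on the mu-opioid receptor. The same cell types were seeded in every group, a bulk library reports their mixture as it stood at lysis, and fewer cells of a type cannot be told apart from less RNA per cell. Cultures are named by the letters of their labels, and consecutive letters form sets with 1 culture per dose, the 4 sets being A-B-C, then G-H-I, then M-N-O and last P-Q-R, although the labels do not say what a set stands for. The study treats the cultures of a dose, grown in wells of a plate, as biological replicates. Whether they came from separate cell preparations is not given in the sources used here, so p-values measure the spread between these samples, which may be technical.

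Glycosaminoglycans are long sugar chains carried by proteoglycans at the cell surface and in the extracellular matrix. A short linker is built on the core protein, then extended either into heparan sulfate by the exostosin enzymes or into chondroitin sulfate by the chondroitin synthases, and both chains are sulfated and epimerised in the Golgi. In the nervous system chondroitin sulfate proteoglycans form much of the perineuronal matrix and limit axon growth, whereas heparan sulfate binds growth factors and guidance molecules, with the sulfation pattern setting which proteins bind.

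Total counts were 12059872 to 17023909 in untreated, 12907388 to 16512387 in low dose and 15102785 to 24813893 in high dose cultures, and the 47 enzymes took 0.193% to 0.233% of them. Untreated culture G stood apart. Its 14 neuron markers summed to 609 CPM (counts scaled to the TMM-adjusted library size) against 4148 to 8693 in the other 11, and Rbfox3, which encodes the neuronal nuclear protein NeuN, was at 1.30 CPM against 58.6 to 93.5. Its fibroblast markers summed to 2218 CPM against 659 to 1170 in all others except low dose culture N, at 3672. The label of a neuron co-culture was therefore met in 11 cultures and hardly in G. Microglia markers, for a cell type that was not seeded, summed to 48.7 to 61.1 CPM in P, Q and R and 432 to 1752 elsewhere.

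The members were grouped into 7 roles. The tested members were 5 of the linker, 5 of the chondroitin chain, 9 of chondroitin and dermatan sulfation and epimerisation, 5 of the heparan chain, 8 of heparan N-, 2-O and 6-O sulfation, 5 of heparan 3-O sulfation and 8 other carbohydrate sulfotransferases and glucuronyltransferases. The last group acts mainly on keratan sulfate, on other glycans or on the HNK-1 epitope, and came in by its gene names. Hs3st6 (0 to 10 counts per culture) and Chst13 (0 to 4 counts per culture) were too low to test, and Xylt1, Chsy3, Glce, Hs3st4, Chst2 and Chst6 were not analysed here. CPM is not divided by transcript length, so levels are compared between cultures and not between genes.

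**Figure D1:**
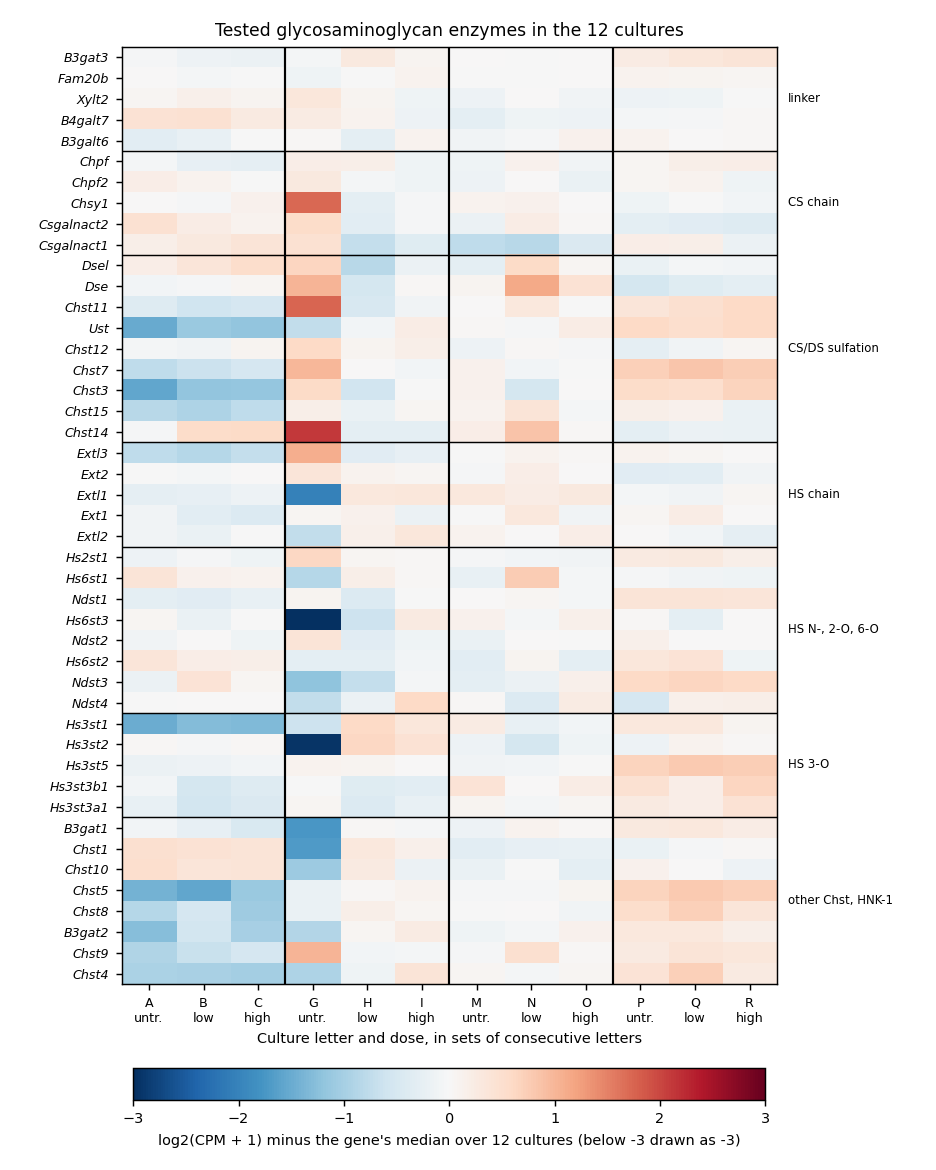
Heat map of the 45 tested members (one line each, grouped by role) in the 12 cultures (columns, ordered by letter set and by dose within a set). Colour is log2(CPM + 1) minus the gene's median, from blue (lower) to red (higher), and values below -3 (Hs6st3 in culture G) are drawn as -3. Column G differs from its neighbours in both directions, and set A-B-C is blue for the 13 members in which it lay below the other sets, whereas columns of one dose do not share a colour.

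No enzyme passed the test in any comparison of doses. In edgeR's quasi-likelihood test with 1 factor of unwanted variation, a gene was called at a Benjamini-Hochberg adjusted p under 0.05 with a log2 fold change above 0.5 in size. By that rule 0 of 45 members and 0% of all 12271 genes were called for low dose against untreated, 0 members and 0% for high dose against untreated, and 0 members and 0% for high dose against low dose. Their smallest adjusted p was 1.0 in each. At an unadjusted p under 0.05 there were 0, 1 and 0 members, the 1 being Ndst4, beside 0.742%, 1.19% and 1.17% of all genes. Those shares are smaller than the threshold itself would give by chance. The p-values of this fit may therefore be too large, and the absence of calls does not show the absence of differences. DESeq2 likewise called 0 members, and 0, 3 and 1 of all 12271 genes. Its unadjusted p was under 0.05 for 0, 2 and 0 members, beside 1.03%, 1.61% and 1.74% of all genes. The 3 comparisons share cultures and are not independent of each other.

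By direction, the members split nearly evenly in the comparisons with high dose. Their median log2 fold change was 0.06 for low dose against untreated (0.01 over all genes), with 28 above and 17 below 0 where 53.4% of all genes lay above. For high dose against untreated it was -0.01 (0.00 over all genes), with 22 above and 23 below, and for high against low dose 0.00 (-0.01 over all genes), with 23 above and 22 below. Single fold changes ran from -0.69 to 0.49, from -0.23 to 1.15 and from -0.31 to 0.92.

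The intervals set how large a difference could have gone unseen in this fit. It kept culture G and had no term for letter sets, so the widths are those of the fit and not a limit of the data. Standard errors of single members in other fits are given below. Median standard errors of the members were 0.27, 0.26 and 0.26 on the log2 scale, against 0.20, 0.20 and 0.19 over all genes. The 95% interval lay within a log2 fold change of 1 either way for 27, 29 and 30 of the 45 members in the 3 comparisons (75.0%, 74.4% and 76.9% of all genes), and within 0.5 for 15, 13 and 12 (42.1%, 43.5% and 44.8% of all genes). For the remaining members a 2-fold difference in at least one direction lay within the interval, and for Chst4, which had 2 to 42 counts per culture, the interval for low dose against untreated ran from -1.77 to 2.46.

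**Figure D2:**
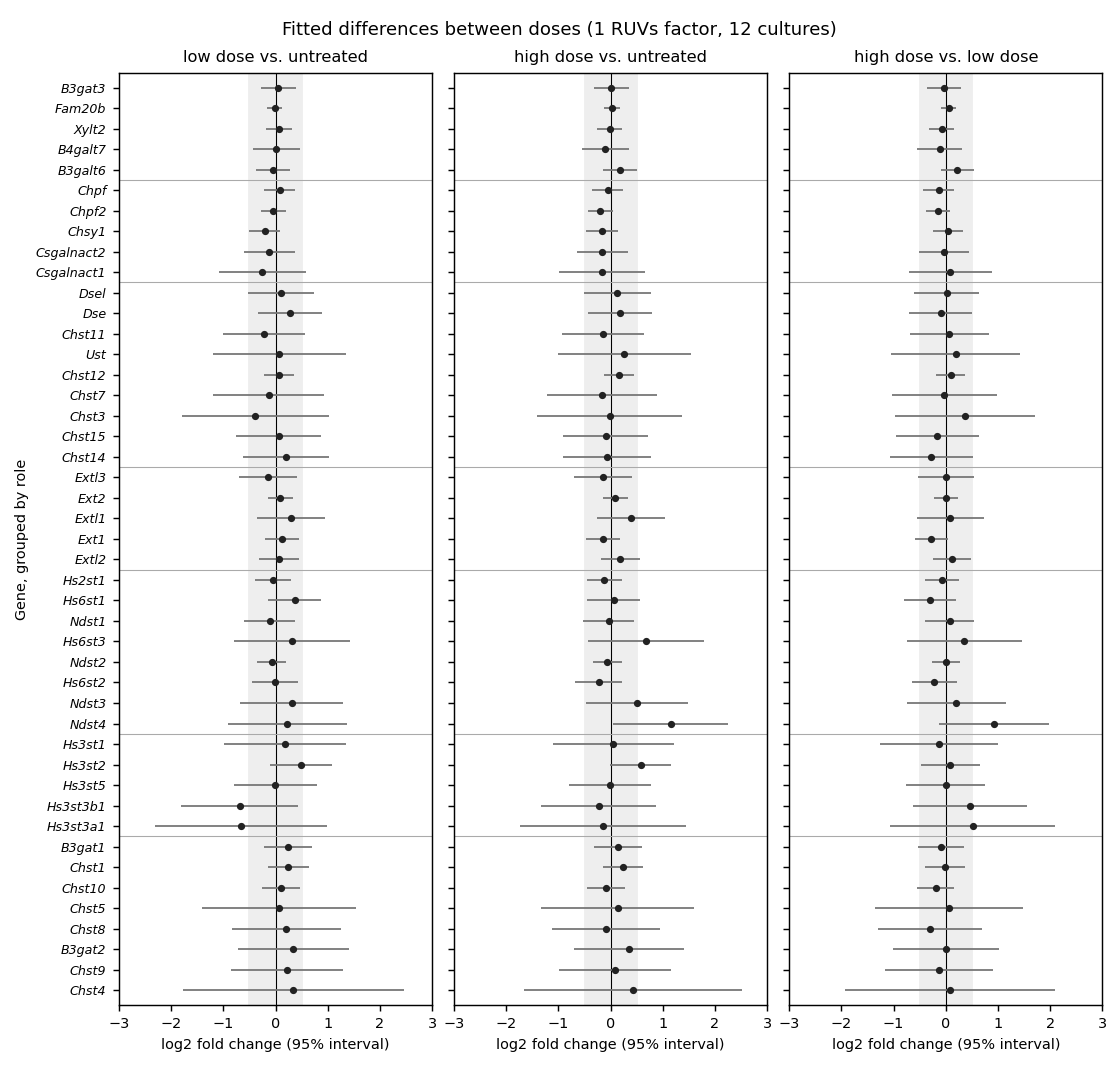
Fitted log2 fold change (points) and 95% interval (lines) of the 45 tested members in the 3 comparisons, grouped by role from linker (top) to other sulfotransferases (bottom), with differences under 0.5 shaded. Every interval but that of Ndst4 for high dose against untreated reaches 0, and the widest belong to members with few counts.

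The linker enzymes had fitted values near 0. These add xylose, galactose and glucuronic acid to the core protein, with Fam20b as the kinase that phosphorylates the xylose. All 5 had fitted values between -0.05 and 0.06 for low dose against untreated and between -0.10 and 0.17 for high dose against untreated. B3gat3, the glucuronyltransferase that completes the linker, was at 138, 137, 142 and 168 CPM in untreated cultures A, G, M and P, at 128, 173, 140 and 180 in low dose cultures B, H, N and Q, and at 125, 150, 142 and 186 in high dose cultures C, I, O and R. The doses overlapped, and P, Q and R were the highest of their doses.

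B3galt6, the galactosyltransferase of the linker's second galactose, was at 7.44, 9.73, 8.64 and 10.3 CPM untreated, at 8.0, 7.54, 9.20 and 9.49 at the low dose and at 9.42, 10.3, 10.4 and 9.80 at the high dose. The high dose cultures lay close together at the top of the range, overlapping the low dose by 1 culture, Q. Its log2 fold change for high against low dose was 0.22 (SE 0.14; edgeR quasi-likelihood adjusted p = 1.0), and all 4 letter sets had the higher value at the high dose.

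Of the chondroitin chain enzymes, all 5 had fitted values below 0 for high dose against untreated, with a median of -0.17. Beside them 50.8% of all genes lay above 0, and none of the 5 passed the test. Untreated culture G was the highest of the 12 cultures for 4 of the 5, Chpf2, Csgalnact2, Csgalnact1 and Chsy1. Without G all 5 still lay below 0, with a median of -0.04 (0.01 over all genes). Chpf, which partners chondroitin synthase in chain elongation, was at 218, 258, 208 and 234 CPM untreated, at 191, 254, 247 and 255 at the low dose and at 186, 206, 210 and 260 at the high dose. Its doses overlapped over most of their range.

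Chpf2, a relative of Chpf with glucuronyltransferase activity, had the third smallest p of the members for high dose against untreated. It was at 68.2, 72.3, 52.8 and 61.0 CPM untreated, at 63.4, 56.4, 59.1 and 63.7 at the low dose and at 58.9, 53.8, 51.6 and 53.8 at the high dose. Means were 63.6 ± 8.55, 60.6 ± 3.53 and 54.5 ± 3.09 CPM (SD, n = 4). The value was lowest at the high dose in all 4 letter sets, with a log2 fold change against untreated of -0.20 (SE 0.11, edgeR quasi-likelihood adjusted p = 1.0). In set M-N-O the margin was slight, with O at 51.6 CPM and M at 52.8. The share of all genes lowest at the high dose in every set was not counted.

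Chsy1, a chondroitin synthase, had 1 culture far above the rest. It was at 24.4, 81.7, 26.1 and 21.8 CPM untreated, at 23.4, 19.5, 26.6 and 23.7 at the low dose and at 26.5, 23.3, 24.4 and 22.8 at the high dose. The high value was that of culture G. The log2 fold change for low dose against untreated was -0.21 (SE 0.14; edgeR quasi-likelihood adjusted p = 1.0) with all 12 cultures and -0.05 (SE 0.11) without G. It was -0.35 without untreated culture A and -0.37 without untreated culture P.

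In chondroitin and dermatan sulfation and epimerisation, 6 of 9 members had fitted values above 0 for low dose against untreated (53.4% of all genes). For high dose against untreated it was 4 of 9 (50.8% of all genes). Without culture G these counts were 8 and 9 of 9, with medians of 0.14 and 0.16 (0.02 and 0.01 over all genes), and 0 were called. The share of all genes above 0 without G was not counted. The 9 members were measured in the same cultures, so their directions are not independent. Plain means, without the factor, gave other directions for low dose against untreated. The difference in mean log2(CPM + 1) was -0.08 for Dsel, -0.07 for Dse and -0.06 for Chst12. It was -0.26 for Chst14 and -0.06 for Chst15, all of them fitted above 0. Ust was above 0 in both (0.23 in plain means, 0.07 fitted), and Chst3, Chst7 and Chst11 were below 0 in both. Dsel, a relative of the epimerase that turns chondroitin into dermatan sulfate, was at 78.6, 107, 55.0 and 59.3 CPM untreated, at 87.9, 37.7, 102 and 65.3 at the low dose and at 98.9, 59.8, 70.9 and 64.7 at the high dose. Each dose spanned low and high cultures.

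Among the heparan chain enzymes, Extl3, which starts the chain on the linker, was at 81.0, 296, 136 and 148 CPM untreated, at 75.5, 108, 147 and 144 at the low dose and at 83.5, 116, 140 and 139 at the high dose. G was the highest of all, and A, B and C were the lowest of their doses.

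Ext1, which with Ext2 forms the polymerase of heparan sulfate, had the smallest p of the members for high against low dose. It was at 47.8, 53.8, 51.6 and 54.4 CPM untreated, at 41.2, 57.0, 64.5 and 60.3 at the low dose and at 38.8, 45.5, 47.7 and 52.0 at the high dose. Means were 51.9 ± 2.97, 55.7 ± 10.2 and 46.0 ± 5.5 CPM (SD, n = 4), and low dose culture B, of set A-B-C, lay within the range of the high dose. Ext1 was lower at the high than at the low dose in all 4 sets, with log2(CPM + 1) differences of -0.43 between O and N, -0.32 between I and H, -0.21 between R and Q and -0.08 between C and B. The fitted log2 fold change was -0.28 (SE 0.14, unadjusted p = 0.0789, edgeR quasi-likelihood adjusted p = 1.0). With letter sets as a block and without G it was -0.27 (SE 0.08, adjusted p = 0.212).

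In heparan N-, 2-O and 6-O sulfation, Hs2st1, the 2-O-sulfotransferase, was at 199, 340, 216 and 266 CPM untreated, at 215, 231, 208 and 272 at the low dose and at 202, 228, 205 and 249 at the high dose. Hs6st1, a 6-O-sulfotransferase, was at 105, 44.0, 69.0 and 78.2 CPM untreated, at 87.6, 91.2, 138 and 74.5 at the low dose and at 86.7, 82.5, 77.0 and 73.2 at the high dose. The lowest Hs6st1 was in G and the highest in low dose culture N. Fibroblast marker sums were highest in N and next highest in G. The log2 fold change of Hs6st1 for low dose against untreated was 0.36 (SE 0.23, edgeR quasi-likelihood adjusted p = 1.0), and 0.20 (SE 0.18) without G. Without low dose culture N it was 0.03, and without untreated culture A 0.60.

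Hs6st3, the 6-O-sulfotransferase found mainly in neural tissue, was the 1 member whose high and low dose cultures did not overlap. It was at 62.4, 0.778, 65.6 and 61.5 CPM untreated, at 52.0, 38.4, 57.6 and 48.6 at the low dose and at 59.6, 72.7, 67.1 and 60.5 at the high dose. Means at the low and high dose were 49.2 ± 8.07 and 65.0 ± 6.17 CPM (SD, n = 4). The untreated cultures other than G, at 61.5 to 65.6 CPM, lay within the high dose range and above every low dose culture. The share of all genes with that order without G was not counted. On the log2(CPM + 1) scale culture I exceeded H by 0.90, R exceeded Q by 0.31, O exceeded N by 0.22 and C exceeded B by 0.19.

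Across all genes 0.668% had every high dose culture above every low dose culture and 0.522% had the opposite, against 1 and 0 of the 45 members. The edgeR quasi-likelihood fit with all 12 cultures gave 0.36 on the log2 scale (SE 0.50, adjusted p = 1.0). Leaving out untreated culture G reduced the standard error, with a value of 0.40 (SE 0.12, unadjusted p = 0.00856, adjusted p = 1.0). The fit with 12 cultures moved with other cultures too: the value was 0.10 without high dose culture O, 0.20 without low dose H, 0.23 without low dose Q and 0.93 without low dose N. For low dose against untreated, leaving out G turned the direction, from 0.32 (SE 0.50) with 12 cultures to -0.37 (SE 0.13, adjusted p = 0.994). Neuron markers differed in the same direction within sets, and their mean log2(CPM + 1) was higher in C than B by 0.01, in I than H by 0.15, in O than N by 0.28 and in R than Q by 0.25. Their part in the Hs6st3 difference was not tested.

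Ndst4, an N-deacetylase and N-sulfotransferase of the heparan chain, had the smallest p of the members for high dose against untreated but few counts, 1 to 34 per culture. It was at 0.767, 0.0649, 0.823 and 0.249 CPM untreated, at 0.770, 0.556, 0.326 and 0.963 at the low dose and at 0.770, 1.70, 1.10 and 0.992 at the high dose. High dose culture C lay within the untreated range, close to A and B. The log2 fold change was 1.15 against untreated (SE 0.50, unadjusted p = 0.0427, edgeR quasi-likelihood adjusted p = 1.0), and 0.87 (SE 0.50, unadjusted p = 0.116) without G. Against low dose it was 0.92 (SE 0.47, adjusted p = 1.0). All genes had an unadjusted p under 0.05 and a higher value in 0.921% for this comparison with untreated and a lower one in 0.269%, against 1 and 0 members.

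**Figure D3:**
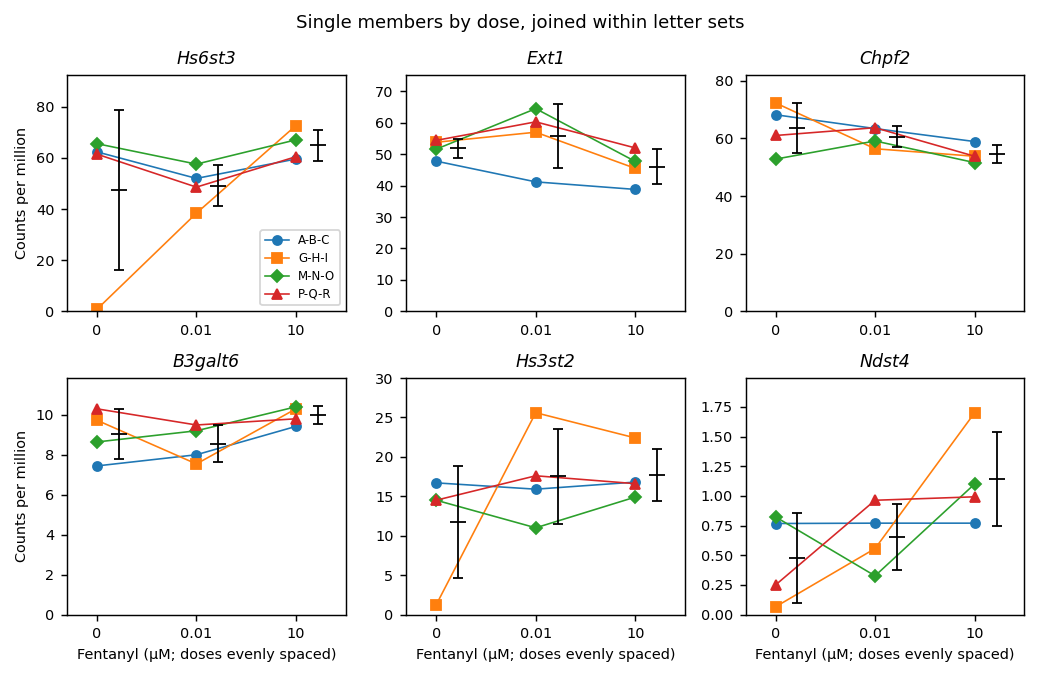
CPM of 6 members by fentanyl concentration, evenly spaced on the horizontal axis, with the cultures of a letter set joined by a line and the mean and SD of each dose (n = 4) in black. Low dose Hs6st3 cultures lie between 38.4 and 57.6 and high dose ones between 59.6 and 72.7, while the lowest untreated points of Hs6st3, Hs3st2 and Ndst4 all belong to culture G.

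The 3-O-sulfotransferases place the rarest sulfate of heparan sulfate. Hs3st1 was at 26.7, 49.3, 90.7 and 95.2 CPM untreated, at 30.3, 116, 65.4 and 95.1 at the low dose and at 29.7, 96.6, 71.8 and 80.9 at the high dose. The cultures A, B and C lay below all others at every dose.

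Hs3st2, a 3-O-sulfotransferase of brain, was at 16.7, 1.23, 14.5 and 14.5 CPM untreated, at 15.9, 25.6, 11 and 17.6 at the low dose and at 16.8, 22.4, 14.9 and 16.6 at the high dose. The lowest value was that of G, and the other untreated cultures lay among the treated ones. With 12 cultures it had the smallest p of the members for low dose against untreated (log2 fold change 0.49, SE 0.27, unadjusted p = 0.0944) and the second smallest for high dose (0.58, SE 0.26, unadjusted p = 0.0531), both with an edgeR quasi-likelihood adjusted p of 1.0. Without G the values were 0.21 and 0.22 (SE 0.26 for both), and without untreated culture A 0.78 and 0.89. For low dose against untreated it was 0.74 without untreated culture M and 0.29 without low dose culture H.

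Hs3st3b1 and Hs3st3a1, whose catalytic domains are nearly identical so that reads may be shared between them, had 7 to 61 and 1 to 27 counts per culture. Both lay below their untreated partner in every low dose culture of the 4 letter sets, with log2 fold changes of -0.69 (SE 0.51) and -0.66 (SE 0.74), and neither passed the test.

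The other sulfotransferases and HNK-1 enzymes had fitted values above 0 for low dose against untreated in 8 of 8 members, with a median of 0.23 and values from 0.07 (Chst5) to 0.34 (Chst4), beside 53.4% of all genes above 0, and none passed the test. Culture G was the lowest of the 12 for Chst1, B3gat1 and Chst10 and the highest for Chst9. For Chst9 the difference in mean log2(CPM + 1), without the factor, was -0.05, where the fitted value was 0.22. Without G 7 of 8 lay above 0, with a median of 0.28 (0.02 over all genes). B3gat1, which makes the glucuronic acid end of the HNK-1 epitope on neural adhesion molecules, was at 119, 36.9, 113 and 153 CPM untreated, at 106, 129, 135 and 156 at the low dose and at 91.2, 122, 129 and 147 at the high dose. Outside G its doses overlapped.

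Direction within letter sets gave counts near the background. For low dose against untreated, 3 members were higher in all 4 sets (Chst8, B3gat2 and Ndst3) and 2 lower (Hs3st3b1 and Hs3st3a1), against 4.06% and 5.28% of all genes. For high dose against untreated, 4 were higher (Hs3st2, Ndst3, Chst5 and Ndst4) and 2 lower (Chpf2 and Ext1), against 5.22% and 5.22% of all genes. Some of the higher values were near ties on log2(CPM + 1). C exceeded A by 0.002 for Ndst4 and by 0.005 for Hs3st2, and R exceeded P by 0.008 for Ndst3. For high against low dose, 7 were higher (Hs6st3, Extl1, B3galt6, Chst3, Ndst4, Hs3st3b1 and Hs3st3a1) and 6 lower (Hs2st1, B3gat1, Hs6st1, Chpf2, Ext1 and Chst8), against 11.7% and 11.1% of all genes.

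The remaining counts were 0. With untreated as the reference, no member had every low dose culture above (0.196% of all genes) or below (0.212%) the untreated ones, and none had every high dose culture above (0.359%) or below (0.326%) them. An unadjusted p under 0.05 was reached by no member for low dose against untreated (0.546% of all genes higher, 0.196% lower) or for high against low dose (0.579% higher, 0.595% lower).

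Culture G differed from the other 11 in 26 of the 45 members. It had the highest CPM of all cultures in 15 and the lowest in 11, where 27.7% of all tested genes were highest and 28.4% lowest in G. The members below the range were Chst1, B3gat1, Fam20b, Hs6st1, Chst10, Hs6st3, Extl1, Extl2, Hs3st2, Ndst3 and Ndst4. Those above it were Hs2st1, Dsel, Extl3, Ext2, Chpf2, Ndst2, Xylt2, Csgalnact2, Csgalnact1, Chsy1, Chst11, Chst12, Chst7, Chst14 and Chst9. As G is 1 culture, these are values of that culture and carry no test.

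The 5 members farthest below were Hs6st3, Hs3st2, Extl1, Chst1 and B3gat1. Hs6st3 had 12 counts in G and 622 to 1463 elsewhere, 77.7-fold below the median of the others. Hs3st2 had 19 against 168 to 447 counts, 13.5-fold below. Extl1, an exostosin-like glucosaminyltransferase, was at 45.1, 12.5, 67.9 and 52.1 CPM untreated, at 45.9, 68.3, 63.0 and 50.1 at the low dose and at 48.9, 68.8, 66.5 and 56.4 at the high dose, so that G was 4.51-fold below the median. Chst1, a keratan sulfate sulfotransferase, was at 119, 25.3, 67.9 and 73.9 CPM untreated, at 115, 106, 70.8 and 82.2 at the low dose and at 111, 94.4, 72.3 and 87.5 at the high dose. G lay 3.46-fold below the median for Chst1 and 3.50-fold below for B3gat1.

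The 5 members farthest above the range were Chsy1, Chst14, Chst11, Extl3 and Chst9. Chst14, the sulfotransferase of dermatan sulfate, was at 2.48, 14.4, 3.09 and 1.91 CPM untreated, at 4.23, 1.91, 5.42 and 2.13 at the low dose and at 4.27, 1.91, 2.64 and 2.11 at the high dose, with G 5.81-fold above the median of the others. Chst11, the main chondroitin 4-O-sulfotransferase, was at 18.2, 84.1, 24.3 and 31.5 CPM untreated, at 15.6, 17.2, 30.3 and 34.1 at the low dose and at 16.7, 22.5, 24.2 and 37.5 at the high dose, with G 3.48-fold above. Both genes were highest in G by a wide margin.

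Chst9, a sulfotransferase of N-acetylgalactosamine on other glycans, was at 0.767, 5.71, 2.26 and 2.99 CPM untreated, at 1.08, 2.16, 3.65 and 3.37 at the low dose and at 1.36, 2.21, 2.39 and 3.23 at the high dose. Chsy1 and Extl3, given above, were 3.44-fold and 2.17-fold above the median in G. Beside these values, G had 4290 CPM of the astrocyte gene Gfap, against 836 to 6870 in the others, 502 CPM of the collagen gene Col1a1 and 380 of Col3a1. Low dose culture N, which had 1270 CPM of Col1a1 and 233 of Col3a1, had the second highest Chst14 of the 12. It also had the highest Dse (55.0 CPM), Hs6st1, Ext1 and Chst15. Hs6st1 was lowest of the 12 in G, at 44.0 CPM. The part of cell makeup in these values was not tested.

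**Figure D4:**
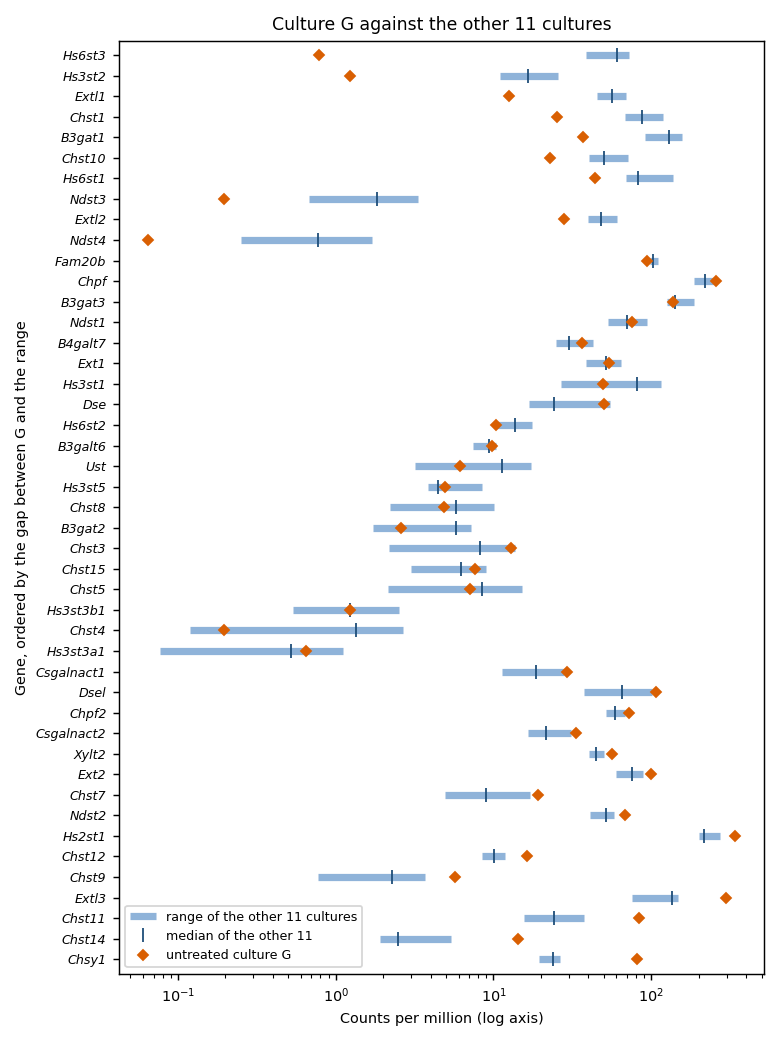
CPM (log axis) of the 45 tested members in untreated culture G (diamonds) beside the range (bars) and median (ticks) of the other 11 cultures, ordered by how far G lies below (top) or above (bottom) the range. Hs6st3 and Hs3st2 lie farthest below, at 0.778 and 1.23 CPM, and Chsy1 and Chst14 farthest above, at 81.7 and 14.4 CPM.

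Letter sets accounted for more of the spread than doses. Over the 11 cultures without G, grouping by set held a median of 80.9% of a member's variance in log2(CPM + 1), and grouping by dose 5.01%, each taken alone and with no test. Over all tested genes the medians were 75.3% and 7.96%. The set share was the larger in 41 of 45 members (91.1%, against 93.8% of all genes). The exceptions were Chst12, B3galt6, Ndst4 and Hs6st3, the last with 13.5% for sets and 62.4% for doses.

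Set A-B-C lay below all other cultures apart from G in 13 members, where 19.3% of all genes did so: Chst5, Extl3, Chst7, Ust, Hs3st1, Extl1, Chst4, Chst8, Chst3, B3gat3, B3gat2, Chst9 and Chst15. It lay above them in 3 (Chst1, B4galt7 and Chst10), against 16.7% of all genes. P-Q-R lay above all others in 12 members (12.4% of all genes) and below in 1 (11.8%). H and I lay above all others in 4 members (4.1% of all genes) and below in 0 (3.53%). M-N-O lay above in 1 (2.56%) and below in 1 (2.01%).

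Several of the 13 sulfate the chondroitin chain. Other members of that role, Chst11, Chst12, Chst14, Dse and Dsel, did not lie below all others in A-B-C. Means in A-B-C and P-Q-R were 16.9 and 34.4 CPM for Chst11 and 10.2 and 9.6 for Chst12. They were 3.66 and 2.05 for Chst14, 24.2 and 18.4 for Dse and 88.45 and 63.1 for Dsel. Ust, which sulfates the uronic acid of chondroitin and dermatan sulfate, was at 3.19 to 4.54 CPM in A, B and C, at 10.4 to 13 in H, I, M, N and O and at 16.0 to 17.2 in P, Q and R, 4.18-fold from the lowest set mean to the highest. Chst3, the chondroitin 6-O-sulfotransferase, was at 2.18 to 3.14 in A-B-C and at 12.1 to 13.8 CPM in P-Q-R, 4.59-fold apart. Chst7, with the same activity, differed 2.92-fold, and Chst15, which adds a further sulfate to the 4-O-sulfated unit, 2.10-fold between these sets.

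Of the heparan and other enzymes, Hs3st1 differed 3.12-fold and Chst5, a keratan and mucin type sulfotransferase, 5.46-fold between A-B-C and P-Q-R. In these sets cell type markers also differed. Neuron markers summed to 7545 to 8693 CPM in A, B and C, to 4148 to 5144 in P, Q and R and to 4989 to 6456 in H, I, M, N and O. Markers of OPCs, 8 genes in the table, summed to 525 to 717 CPM in A, B and C and to 1146 to 2341 in the others, and 12 oligodendrocyte markers to 3076 to 4670 against 7549 to 26500. Astrocyte markers summed to 8425 to 11950 in P, Q and R. Their part in the differences between sets was not tested.

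**Figure D5:**
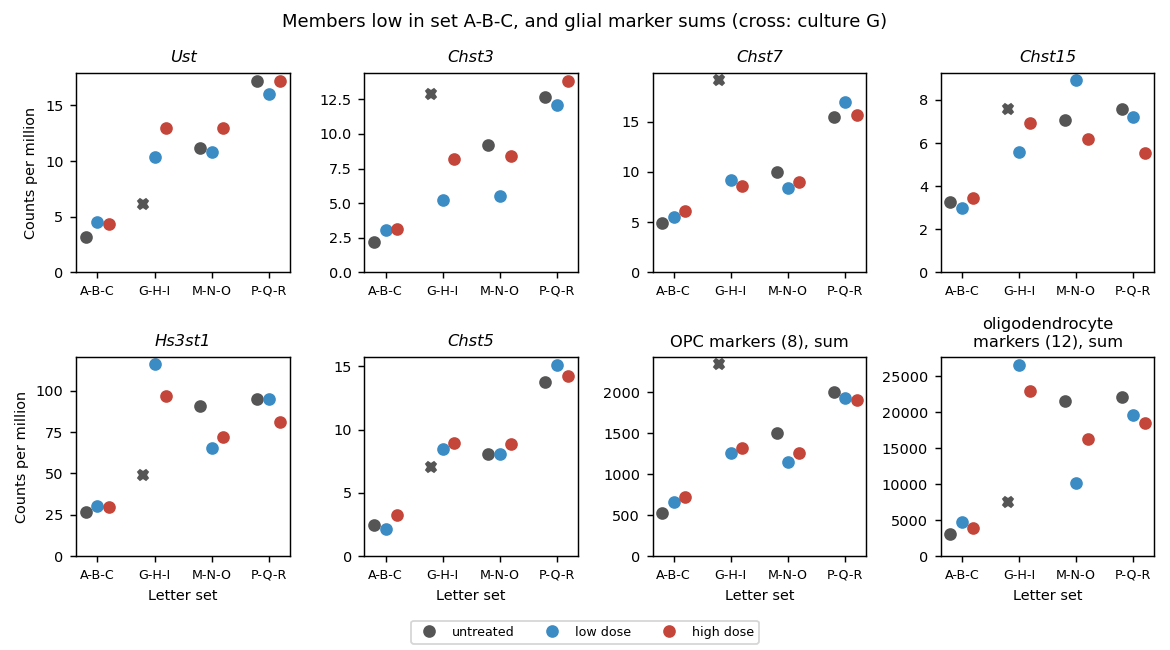
CPM of 6 members and the summed CPM of OPC and oligodendrocyte markers by letter set, coloured by dose, with culture G as a cross. Ust, Chst3, Chst7, Chst15, Hs3st1 and Chst5 are lowest in A-B-C at all 3 doses, as are both marker sums, and for Ust, Chst7 and Chst5 the doses of one set lie close together except for G.

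The other genes of the pathway gave 0 calls as well. Of the precursor supply genes 16 were tested, of hyaluronan synthases 2, of extracellular heparan editing 3, of heparan sulfate core proteins 11, of chondroitin and dermatan sulfate core proteins 12 and of lysosomal degradation 12. An unadjusted p under 0.05 occurred in 2 genes, both lower at the high than at the low dose. In that comparison 0.595% of all genes were lower and 0.579% higher with such a p. The comparisons with untreated gave 0 such pathway genes, beside 0.742% of all genes for the low dose and 1.19% for the high dose. Uap1, which makes the activated N-acetylglucosamine precursor, had a log2 fold change of -0.28 (SE 0.13, unadjusted p = 0.0471, edgeR quasi-likelihood adjusted p = 1.0). Acan, the aggrecan core protein of perineuronal nets, had -1.79 (SE 0.80, unadjusted p = 0.0478, adjusted p = 1.0).

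Acan was at 2.07, 0.259, 2.81 and 15.6 CPM untreated, at 2.23, 2.04, 7.70 and 15.3 at the low dose and at 2.01, 1.2, 2.06 and 2.81 at the high dose. The high dose cultures were even, and the untreated and low dose ones ranged widely, with P and Q highest. List medians for high against low dose were -0.03 for precursor supply, 0.12 for hyaluronan synthases, -0.10 for extracellular heparan editing, -0.13 for heparan sulfate core proteins, -0.09 for chondroitin and dermatan sulfate core proteins and -0.04 for lysosomal degradation, beside -0.01 over all genes.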

How the data were processed

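Libraries were poly(A)-selected with a kit that does not mark strand, so reads of overlapping genes on opposite strands cannot be told apart. Per the labels and the methods, the authors mapped reads to rat genome rn6 with STAR and deposited raw counts per gene from featureCounts, for all 12 cultures in one table. How reads shared by paralogs were treated is not given in the sources used here. Groups follow the dose in the labels. Counts were tested with edgeR 4.0.16 (R 4.3.3, limma 3.58.1): genes were filtered by edgeR's expression filter, libraries scaled by TMM, 1 factor of unwanted variation (RUVs) estimated from all genes over replicates of a dose, and a quasi-likelihood test run over the 3 doses, with Benjamini-Hochberg adjustment over 12271 genes. The authors' settings for that factor are not given in the sources used here. The procedure was run on simulated counts with planted changes. These had less spread than the data here and neither letter sets nor a culture like G. That run therefore does not show how the procedure performs on these data. Of the genes in the table, 2226 had no count.

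Members and lists were chosen with earlier results of these data known. Followed in full were the 3 members with the smallest p per comparison and any whose groups did not overlap. Values in all cultures are also given for the member with the highest CPM in each role and the 5 farthest outside the range on either side in culture G. Alternatives were no factor, 2 factors, letter sets as a block with and without G, other scalings, filters and tests including DESeq2 1.42.0, only the cultures compared, an offset of 0.1 and each culture left out. Direction in 3 letter sets without G was added after seeing the data. Gene positions and sequences were not used here.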

Additional observations from a re-analysis of the deposited data

Results flagged for a closer look

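In each dose, the gap between the most extreme culture and its neighbour was divided by the range of the 4 cultures. The shares were taken on log2(CPM + 1), and the values beside them are CPM. Of 135 groups (45 members at 3 doses), 8 had a share above the 95% limit of Dixon's test, which chance exceeds in about 1 of 20 groups. Untreated culture G accounted for 3 of the 8. Its Hs6st3 was lowest (0.778 CPM, the next 61.5, share 0.982), its Hs3st2 was lowest (1.23 CPM, the next 14.5, share 0.935) and its Chsy1 was highest (81.7 CPM, the next 26.1, share 0.867). Untreated culture A was lowest for Chst15 (3.25 CPM, the next 7.06, share 0.910).

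At the low dose, B was lowest for Chpf (191 CPM, the next 247, share 0.890) and H for Ndst2 (40.8 CPM, the next 52.3, share 0.965). At the high dose, R was highest for Hs3st5 (8.10 CPM, the next 4.51, share 0.880) and C lowest for B3gat2 (2.31 CPM, the next 6.19, share 0.902). For 3 of these genes the rest of the letter set lay on the same side as the single culture: Chst15 was at 3.0 and 3.44 CPM in B and C, Hs3st5 at 7.65 and 8.46 CPM in P and Q, and B3gat2 at 1.71 and 3.46 CPM in A and B.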

How the results depend on the processing

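In all 23 alternatives 0 of the members tested were called in each comparison. Over all genes 0 were called for low dose against untreated as well. For high dose against untreated and high against low dose, 15 and 14 of 12337 genes were called with letter sets as a block and without G. Of 12271 genes, 3 and 1 were called with DESeq2, 1 and 1 with 2 factors and 2 and 0 with a likelihood ratio test. The remaining alternatives called 0. Letter sets are not stated to pair cultures. Counts of members with an unadjusted p under 0.05, which were 0, 1 and 0 for low dose against untreated, high dose against untreated and high against low dose, moved as follows. With 2 factors they were 1, 2 and 2 (2.3%, 3.78% and 4.05% of all genes). With letter sets as a replicate block they were 2, 1 and 1 (2.47%, 3.05% and 2.96% of all genes), and with that block and without G they were 3, 0 and 5, where 7.54%, 9.43% and 13.6% of all genes had such a p. For high dose against untreated the count was 0 with no factor (1.07% of all genes). It was 0 (1.31%) with at least 10 counts in every culture, which left Ndst4 untested. It was 2 with DESeq2 (1.61%) and 2 with no filter (1.62%). For high against low dose it was 1 with only the 8 cultures compared (2.61% of all genes). Leaving out each culture in turn gave 0 to 2, 0 to 4 and 0 to 2. The shares of all genes in those fits were 0.493% to 3.86%, 0.575% to 4.05% and 0.761% to 4.24%. Without G the counts were 1 (Hs6st3), 0 and 2 (Hs6st3 and Ext1), beside 1.99%, 2.34% and 4.24% of all genes.

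Among the fold changes followed through all alternatives, 1 direction turned: Hs3st2 for low dose against untreated was -0.0097 with the block and without G. Over all 45 members, leaving out G alone turned the sign of 8, 14 and 3 fold changes in the 3 comparisons, Hs6st3 for low dose against untreated among them. Members higher in all 4 letter sets at the high dose than untreated numbered 2 (Ndst3 and Chst5) with DESeq2 size factors. Over the 3 sets without G, 10 members were higher and 5 lower at the low dose than untreated (13.9% and 13.7% of all genes), and 11 higher and 5 lower at the high dose (15.1% and 14.5%). Depth limits Ndst4, Hs3st3a1 and Chst4, with as few as 1, 1 and 2 counts in a culture.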
